A study of Capra hircus with 10 samples.

Results

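FBN1, FBN2, LTBP1, VCAN, LAMA4 and CRIM1 encode extracellular matrix proteins and proteins that hold or bind growth factors at the cell surface. Their circular RNAs (circRNAs) were followed in goat cells of intramuscular fat, as preadipocytes (IMPA) and after their differentiation into adipocytes (IMA). A circRNA was taken when the table of circRNAs gave 1 of these 6 symbols as its host gene, and 8 of the 1327 circRNAs were found in this way, from 6 of the 945 named host genes. FBN1 and FBN2 each gave 2 circRNAs and the other genes gave 1 each.

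The cells were labelled WT and came from the intramuscular fat of the longissimus dorsi muscle of 3 male Jianzhou goats, 7 days old. The 5 IMPA libraries were taken at day 0. The 5 IMA libraries were taken at day 3 of adipogenic differentiation in a medium with fetal bovine serum and 50 µmol/L oleic acid. Since 3 goats cannot give 5 libraries per group from separate animals, and the goat behind each library is not given in the sources used here, SDs and p-values describe the spread between libraries.

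Fibrillins polymerise into microfibrils, on which elastin is laid down and to which latent growth factors of the TGF-beta and BMP families are tethered. LTBP1, a latent TGF-beta binding protein, links the latent TGF-beta complex to these microfibrils, and versican (VCAN), a chondroitin sulfate proteoglycan, binds hyaluronan and fibrillin-1. Preadipocytes lie in a fibrillar matrix of this kind and lay down more basement membrane, of which laminins are a main part, as they fill with lipid.

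For each circRNA and library 2 kinds of reads were counted. Junction reads cross the back-splice junction and come from the circle. Non-junction reads lie at the same splice positions but are spliced in the linear order, so that they stand for linear RNA of the host gene at that place. Both were scaled with TMM factors to counts per 1000000 reads of their kind, called normalized CPM here. The circular share sets 2 times the junction count against that same product plus the non-junction count, in percent, because linear reads are counted at both ends of the circle. Junction reads summed to between 11421 and 15553 in the IMPA libraries and to between 9622 and 12499 in the IMA libraries. At this depth 1 junction read is worth between 64.3 and 87.6 CPM in IMPA and between 80.0 and 104 in IMA, and a count of 0 allows up to 3 reads. By the study's own mapping summary, a smaller part of the reads of every IMA library had mapped to the goat genome than in any IMPA library, so that this difference and the day of differentiation cannot be told apart in any comparison of the groups.

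The labelled cell types could be checked only against markers that form a circRNA. Of 18 adipocyte genes looked for, PLIN2 and EBF3 had circRNAs. Linear reads of PLIN2, the coat protein of lipid droplets, were higher in IMA by a log2 fold change of 1.93 (edgeR quasi-likelihood test, Benjamini-Hochberg adjusted p = 1.51e-14), and those of EBF3 were lower by a log2 fold change of -1.10 (edgeR, adjusted p = 4.75e-09). None of the 13 preadipocyte and fibroblast markers, 6 endothelial, 4 immune and 5 smooth muscle and pericyte markers had a circRNA, which says nothing of their linear RNA. Of 19 striated muscle markers 6 had circRNAs, 14 in all, with LMO7 the most abundant and none listed for MYOD1, MYOG, the myosins or TTN. This list was chosen with earlier results of these data known. It holds LMO7, MYBPC1, MYPN, FHOD3 and STAC, hosts of circRNAs that the study had reported as higher in IMA. The levels and calls of the muscle list that follow are therefore a description with no test. The summed junction reads of these 14 circRNAs were 5480 to 7255 CPM in IMPA and 11427 to 14967 in IMA, and 4 of the 14 were called higher in IMA, against 6 (0.464%) of all 1294 circRNAs tested on junction reads. In linear reads 7 of these circRNAs were tested, all 7 had log2 fold changes above 0, and 4 were called higher, against 80 (11.6%) of 690. The part of this in the results below was not tested. In such bulk libraries, fewer cells of a type and less RNA per cell cannot be told apart.

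The 8 circRNAs were all listed as made of exons, with 2 to 4 listed exons and spliced lengths of 289 to 417 nt. FBN1 circ_0005404 lay on chromosome 10 from 41467461 to 41470972 on the minus strand, a span of 3.51 kb with 4 listed exons and 354 nt. FBN1 circ_0005405 shared its end at 41467461 and ran to 41486009, a span of 18.5 kb with 374 nt. It listed the outer pair of the exons of circ_0005404 without the 2 exons between them, and 2 exons further on.

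FBN2 circ_0004055 lay on chromosome 7 from 85110573 to 85118197 on the minus strand, with 3 listed exons and 291 nt. FBN2 circ_0004051 shared its end at 85118197 and all 3 of these exons, and added 1 exon of 126 nt at the far end of a span of 66.2 kb, which began at 85052007. The circRNAs of a fibrillin gene therefore share sequence and a splice position, and their non-junction reads overlap.

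LTBP1 circ_0005951 joined 2 exons at the ends of 65.0 kb of chromosome 11 (15626959 to 15691952, plus strand) into 294 nt. CRIM1 circ_0005960, also on chromosome 11 (18712494 to 18765107, plus strand), joined 2 exons at the ends of 52.6 kb into 295 nt. LAMA4 circ_0004814 joined 2 exons on chromosome 9 (25617711 to 25627244, plus strand), 289 nt over 9.53 kb. VCAN circ_0003788 lay on chromosome 7 from 27162574 to 27181351 on the minus strand, and its 3 listed exons ended 6.62 kb into its 18.8 kb span. Both ends lay at listed exons in 78.2% of the 1274 exon circRNAs. Spans of at least 50 kb were held by 3 of the 8 circRNAs, those of LTBP1, CRIM1 and FBN2 circ_0004051, and by 25 of all 1327 (1.88%), whose median span was 8.04 kb. The genome build is not given in the sources used here. Positions are those of the files, and chromosomes were named from the RefSeq gene table.

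**Figure D1:**
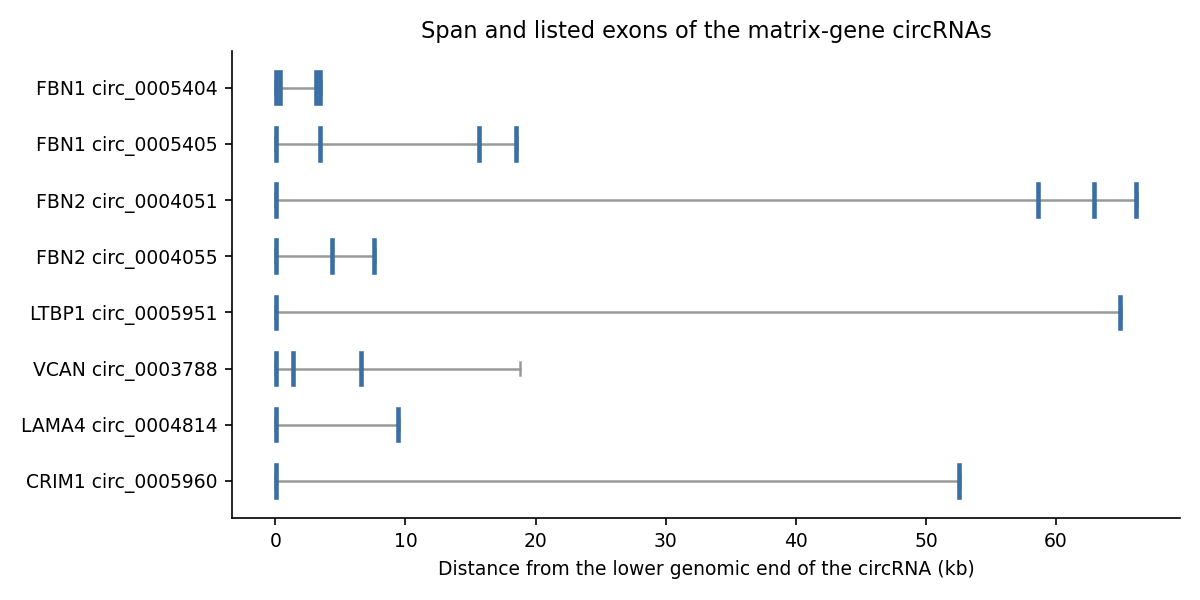
Span of each circRNA (grey line) and the middle of each of its listed exons (blue ticks, widths not to scale) against the distance from its lower genomic end in kb. The LTBP1, CRIM1 and FBN2 circ_0004051 circles span 52.6 to 66.2 kb with few listed exons, and the listed exons of the VCAN circle stop before its upper end.

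Circular reads of these genes were few and did not change past the threshold between IMPA and IMA. In the edgeR quasi-likelihood test with Benjamini-Hochberg adjustment over 1294 circRNAs, 12 circRNAs (0.927%) passed 0.01, 6 in each direction, and none of the 8 was among them. That split moved with the processing, with 6 higher and 2 lower without TMM and 8 and 1 with uniquely mapped reads as library sizes. It was 3 and 10 with DESeq2, which gave 1179 circRNAs no adjusted p. In edgeR at a mean count of at least 10 it was also 3 and 10, and with limma voom 5 and 7. None of the 8 had an unadjusted p under 0.05 in the main edgeR fit either, against 170 of the 1294 (13.1%). The fitted log2 fold changes had a median of 0.15 over the 8 and of -0.062 over the 1294. The fit adds a prior count of 2, which draws the folds of circRNAs with few reads towards 0. Together the 8 circRNAs held 45 to 80 junction reads per library. This was 0.565%, 0.394%, 0.460%, 0.440% and 0.418% of all junction reads in IMPA1 to IMPA5 and 0.583%, 0.457%, 0.528%, 0.551% and 0.498% in IMA1 to IMA5. The groups overlapped, with 3 IMPA libraries below every IMA library.

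FBN1 circ_0005404 was read 13, 9, 3, 10 and 15 times in IMPA1 to IMPA5 and 8, 8, 10, 4 and 12 times in IMA1 to IMA5. The groups overlapped over most of their range, and IMPA3 and IMA4 were low. Its log2 fold change was 0.014, with a 95% interval of -0.57 to 0.60 that holds changes of up to about 1.5 times in either direction.

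FBN1 circ_0005405 had 9, 2, 17, 8 and 6 junction reads in IMPA and 10, 4, 13, 8 and 4 in IMA. Its highest library, IMPA3, was the lowest of circ_0005404. Between the groups it differed by a log2 fold change of 0.12 ± 0.33 (SE, n = 5 and 5, edgeR adjusted p = 0.90). Summed over both circRNAs FBN1 had 22, 11, 20, 18 and 21 reads in IMPA and 18, 12, 23, 12 and 16 in IMA, with a log2 fold change of 0.084 ± 0.21 (edgeR adjusted p = 0.88 over 922 host genes, of which 12, or 1.3%, passed 0.01).

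FBN2 circ_0004055 was the most read of the 8, with 21, 10, 17, 21 and 12 reads in IMPA and 15, 11, 11, 14 and 4 in IMA. IMA5 stood low and the other 9 libraries overlapped, with a log2 fold change of -0.26 ± 0.26 (edgeR adjusted p = 0.69). Leaving out IMA5 gave -0.096, and leaving out IMA4 gave -0.38. The long circle of FBN2, circ_0004051, had 14, 4, 11, 2 and 10 reads in IMPA and 8, 7, 11, 9 and 10 in IMA. The IMPA libraries spread from 2 to 14 reads and enclosed all IMA libraries, and the log2 fold change was 0.34 ± 0.31 (edgeR adjusted p = 0.67). It was 0.14 without IMPA4 and 0.53 without IMPA1. The sum over both FBN2 circRNAs gave a log2 fold change of -0.0038 ± 0.19, whose 95% interval of -0.38 to 0.37 is the narrowest of the 6 genes.

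The LTBP1 circle was read 5, 6, 4, 0 and 2 times in IMPA and 5, 5, 8, 7 and 4 times in IMA. In normalized CPM these were 365, 520.2, 297, 0 and 132 in IMPA and 442, 476, 640.3, 701 and 384 in IMA. On this scale IMPA2 alone overlapped with the IMA libraries, and the other 4 IMPA libraries lay below all of them. In raw reads IMPA1 (5) and IMPA3 (4) also lay within the IMA range of 4 to 8, so this separation depends on the scaling. The normalized CPM had a mean of 263 (SD 203) in IMPA and of 528 (SD 136) in IMA, over 5 libraries each. The log2 fold change of 0.71 ± 0.39 had the lowest p of the 8 (edgeR, unadjusted p = 0.0776, adjusted p = 0.43), and its interval ran from -0.056 to 1.47. With limma voom the log2 fold change was 1.36 (unadjusted p = 0.0317, adjusted p = 0.22), and it ranged from 0.50 without IMPA4 to 0.92 without IMPA2 (edgeR adjusted p = 0.61 and 0.35).

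The VCAN circle had 5, 6, 8, 4 and 6 reads in IMPA and 12, 4, 6, 4 and 7 in IMA, with a log2 fold change of 0.34 ± 0.33 (edgeR adjusted p = 0.68). In normalized CPM IMA1 (1060) and IMA5 (671) lay above the highest IMPA library (593), the others overlapped, and without IMA1 the log2 fold change was 0.092. LAMA4, the laminin alpha 4 chain of basement membranes around vessels, muscle and fat cells, gave 3, 4, 2, 5 and 2 reads in IMPA and 3, 5, 0, 4 and 4 in IMA. These counts lie near the limit that a count of 0 allows, and the log2 fold change of 0.17 had an interval of -0.65 to 0.99. Leaving out 1 library gave 0.018 (without IMA2) to 0.41 (without IMA3). CRIM1, a transmembrane protein that binds BMPs, gave 10, 4, 4, 4 and 12 reads in IMPA and 4, 2, 7, 3 and 6 in IMA. IMPA1 and IMPA5 were above every IMA library, the other libraries overlapped, and the log2 fold change was -0.26 ± 0.35 (edgeR adjusted p = 0.78). Leaving out 1 library gave -0.38 (without IMA5) to -0.078 (without IMPA5).

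**Figure D2:**
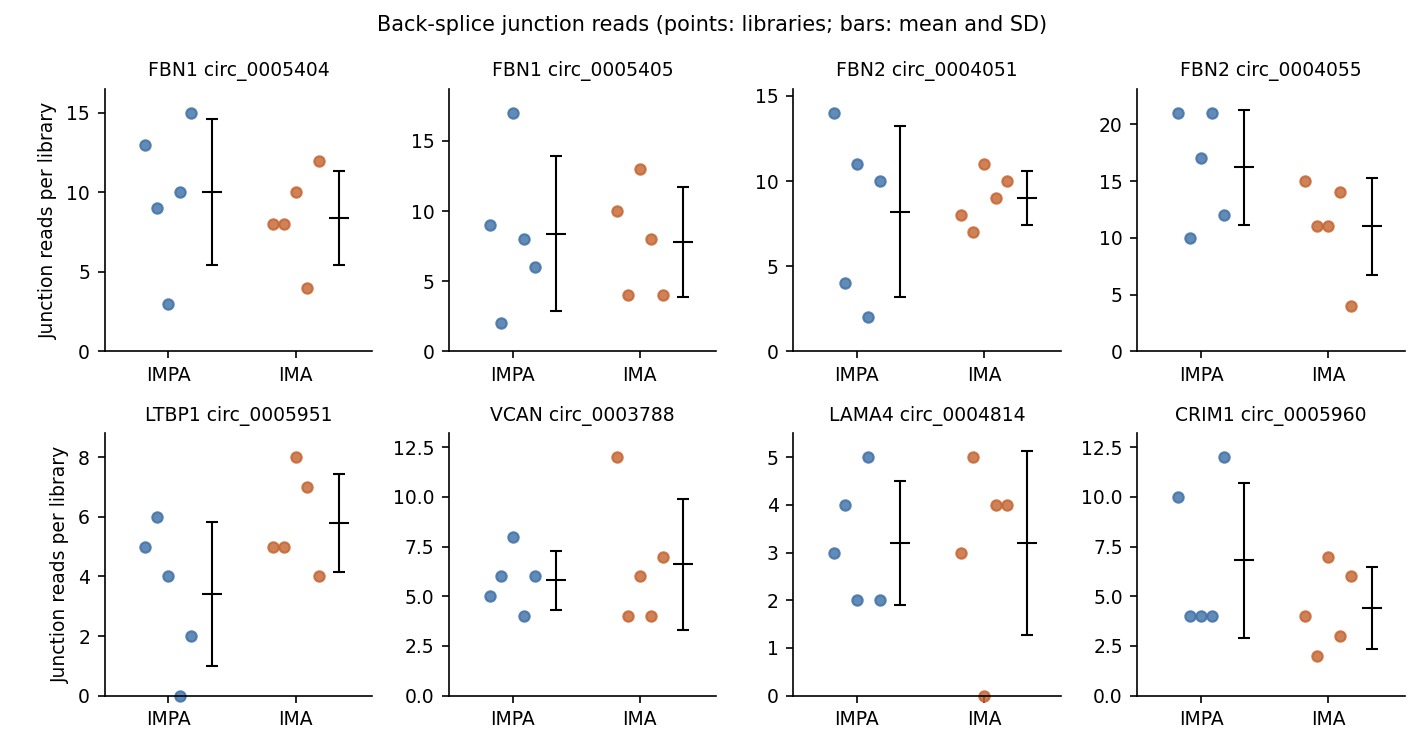
Junction reads in each library (points, in the order of the library numbers) by circRNA and group, with the mean and SD of each group (black bars, n = 5) on linear axes from 0. Groups overlap in every panel, and FBN2 circ_0004055 reaches 21 reads while LAMA4 stays at 5 or below.

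By mean normalized junction reads the order was FBN2 circ_0004055 (1124 CPM), FBN1 circ_0005404 (759), FBN2 circ_0004051 (712), FBN1 circ_0005405 (664), VCAN (520.0), CRIM1 (448), LTBP1 (396) and LAMA4 (279). The median over all 1327 circRNAs was 457. FBN2 circ_0004055 was above FBN1 circ_0005404 in 8 of 10 libraries. Every other pair of neighbours in this order changed places between libraries, the higher member leading in 4 to 6 of 10.

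The 2 circRNAs of a gene divided its reads unevenly between libraries. FBN1 circ_0005404 took 59.1%, 81.8%, 15%, 55.6% and 71.4% of the FBN1 junction reads in IMPA1 to IMPA5. In IMA1 to IMA5 it took 44.4%, 66.7%, 43.5%, 33.3% and 75%. IMPA2 and IMPA3 were furthest apart, and their exact binomial 95% intervals of 48.2% to 97.7% and 3.21% to 37.9% did not meet. Such intervals cover counting error only, and the pair was picked for its distance, so they are no test of a difference between libraries. FBN2 circ_0004051 took 8.70% to 45.5% of the FBN2 reads in IMPA and 34.8% to 71.4% in IMA. The mean share of FBN2 circ_0004051 was 14.4 percentage points higher in IMA (exact permutation test over all label assignments, two-sided, p = 0.214, adjusted p = 0.68), 8.52 points without IMPA4, 8.30 without IMA5 and at most 17.7 with another library left out, and that of FBN1 circ_0005404 was lower, with a difference of -3.99 points (exact permutation p = 0.794). Of 303 circRNAs tested for a shift of this kind 33 (10.9%) had an unadjusted p under 0.05. That 0 (0.0%) passed an adjusted 0.01 says nothing here, since at least 241 would have had to reach the smallest p that the label assignments can give.

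Linear reads of FBN1 were higher in IMA, while those of FBN2 had the opposite sign and did not pass the threshold. The FBN1 levels were 1.26-fold higher at circ_0005404 and 1.22-fold at circ_0005405, and these were the only calls among the 6 circRNAs tested. The FBN2 levels in IMA were 0.83 of the IMPA level at both positions, with an adjusted p under 0.05, as for 246 (35.7%) of all circRNAs tested, but not under 0.01. Non-junction reads were deposited only for libraries in which the circRNA had junction reads, so this test covers the 690 circRNAs with junction reads in all 10 libraries. Of these 150 (21.7%) passed 0.01, 80 (11.6%) of them higher and 70 (10.1%) lower in IMA, and the median log2 fold change was 0.00077. The split turned to 48 higher and 106 lower without TMM and to 49 and 93 with uniquely mapped reads as library sizes, and the FBN1 calls were made under both. All changes of linear reads are relative to the sum over these 690 circRNAs.

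The fibrillin-1 positions carried 9342, 9839.7, 9202, 10929.6 and 9555 normalized non-junction CPM in IMPA1 to IMPA5 at circ_0005404, and 12165, 11531.5, 11935, 12758 and 13346 in IMA1 to IMA5. Every IMA library lay above every IMPA library, with a log2 fold change of 0.34 ± 0.055 (SE, n = 5 and 5, edgeR adjusted p = 1.84e-05). Groups that do not overlap were found for 22.2% of the 690 circRNAs. At circ_0005405, which shares part of these reads, the IMPA libraries ran from 9838 to 11414 and the IMA libraries from 11734 to 13573, with a log2 fold change of 0.29 ± 0.053 (edgeR adjusted p = 0.000101). Before normalization the FBN1 reads were fewer in IMA (mean 1743 at circ_0005404) than in IMPA (mean 2056), since the IMA libraries held 128138 to 173047 non-junction reads over the 690 circRNAs and the IMPA libraries 177795 to 244354.

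FBN2 circ_0004055 carried 1321, 1305, 1003, 1316 and 908 normalized non-junction CPM in IMPA and 1062, 988, 946, 819 and 1008 in IMA. IMPA1, IMPA2 and IMPA4 lay above every IMA library, while IMPA3 and IMPA5 lay among them. This gave a log2 fold change of -0.27 ± 0.10 (edgeR adjusted p = 0.0413). At circ_0004051 the values were 825, 857, 742, 875 and 641 in IMPA and 736, 666, 602, 578 and 657 in IMA. The same 3 IMPA libraries were highest and IMPA5 was again among the IMA libraries, with a log2 fold change of -0.27 ± 0.10 (edgeR adjusted p = 0.039). The pass at 0.05 was not held when libraries were left out, while the sizes changed little. In 7 of the 10 fits that left out 1 library each, those without IMPA1, IMPA2, IMPA4 and IMA2 to IMA5, neither circRNA passed even 0.05, with edgeR adjusted p of up to 0.133 at circ_0004055 and 0.0988 at circ_0004051, both without IMA4. The log2 fold changes of these 7 fits were -0.28 to -0.21 at circ_0004055 and -0.28 to -0.23 at circ_0004051. Without IMPA5 both passed 0.01, at -0.34 for circ_0004055 (edgeR adjusted p = 0.00362) and -0.33 for circ_0004051 (edgeR adjusted p = 0.0098).

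The ratio of FBN1 to FBN2 linear reads within a library does not depend on the library size. It was computed after the values were seen, from circ_0005404 and circ_0004055, and it combines the 2 differences given above, so it is a description with no test. The ratio was 7.07, 7.54, 9.18, 8.31 and 10.5 in IMPA and 11.5, 11.7, 12.6, 15.6 and 13.2 in IMA. On the log2 scale the 5 IMPA libraries averaged 3.08 with an SD of 0.23 and the 5 IMA libraries 3.68 with an SD of 0.18, a difference of 0.60 or 1.52-fold. The other circRNA of each gene gave a difference of 0.57.

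Linear VCAN reads varied more than those of nearly every other circRNA position among the IMPA libraries. They were 5961, 6361, 4093, 8388 and 2796 normalized CPM in IMPA1 to IMPA5 and 6217, 6522, 6869.8, 7126 and 6958 in IMA1 to IMA5. IMPA4 was 3.00-fold above IMPA5, and the IMA libraries lay within 1.15-fold of each other, inside the range of IMPA. The SD of the log2 values in IMPA was 0.62, the second highest of 689 circRNAs with linear reads above 0 in every library, whose median was 0.14. In IMA it was 0.079, with a median of 0.15 over the 689. The log2 fold change was 0.29 ± 0.15 (edgeR adjusted p = 0.125), and it turned on single IMPA libraries. Without IMPA5, the lowest, it was 0.13 (edgeR adjusted p = 0.30), without IMPA3 it was 0.21 (edgeR adjusted p = 0.28), and without IMPA4, the highest, it was 0.49 and passed 0.01 (edgeR adjusted p = 0.00321).

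LAMA4 and LTBP1 had 1 library each without a junction read, hence without a non-junction value, and were fitted without that library. Linear LAMA4 reads were 6839, 7574, 5302, 7863 and 4656 CPM in IMPA, and 7414, 7525, 7271 and 7571 in the 4 IMA libraries other than IMA3. IMPA3 and IMPA5 were again the lowest. The log2 fold change was 0.21 ± 0.099 without IMA3 (edgeR adjusted p = 0.103 over 715 circRNAs). Linear LTBP1 reads were 4211, 5078, 3244 and 2465 CPM in the IMPA libraries other than IMPA4, and 3824, 3309.7, 3838, 3447 and 3475 in IMA. The IMA libraries lay inside the range of IMPA, and the log2 fold change was -0.058 ± 0.11 without IMPA4 (edgeR adjusted p = 0.729 over 716 circRNAs).

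IMPA3 and IMPA5 had the lowest linear reads of the IMPA libraries for VCAN, LAMA4, LTBP1 and both FBN2 circRNAs. They were also the 2 libraries with the most junction reads and the most non-junction reads. IMPA1 came next, with 14156 junction reads against 14355 in IMPA3, and its linear VCAN level was 5961 CPM against 4093. The part of depth in these values was not tested. Without IMPA3 and IMPA5 the edgeR log2 fold changes were -0.026 for VCAN, -0.43 for FBN2 circ_0004055 and -0.38 for circ_0004051. Those of FBN1 were 0.31 and 0.28 and that of CRIM1 was -0.00023. LAMA4 and LTBP1, which lack a value in 1 library, were set side by side in limma fits that leave out missing values only. In these LAMA4 had 0.24 with all libraries and 0.0077 without IMPA3 and IMPA5, and LTBP1 had -0.017 and -0.37. As the libraries were picked by these values, the figures are given without a test. VCAN and LAMA4 lay near 0 without IMPA3 and IMPA5, and LTBP1 and FBN2 lay further below 0. The direction of these moves was fixed by the choice, since leaving out the lowest IMPA libraries raises the IMPA mean of these genes. FBN1 stayed higher in IMA.

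CRIM1 was the steadiest of the 6 genes in IMPA. Its linear reads were 753, 737, 733, 747 and 789 CPM in IMPA and 751, 726, 625, 755 and 869 in IMA, where IMA3 was lowest and IMA5 highest. The IMPA libraries lay inside the range of the IMA libraries, and the log2 fold change was -0.021 ± 0.093 (edgeR adjusted p = 0.883).

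**Figure D3:**
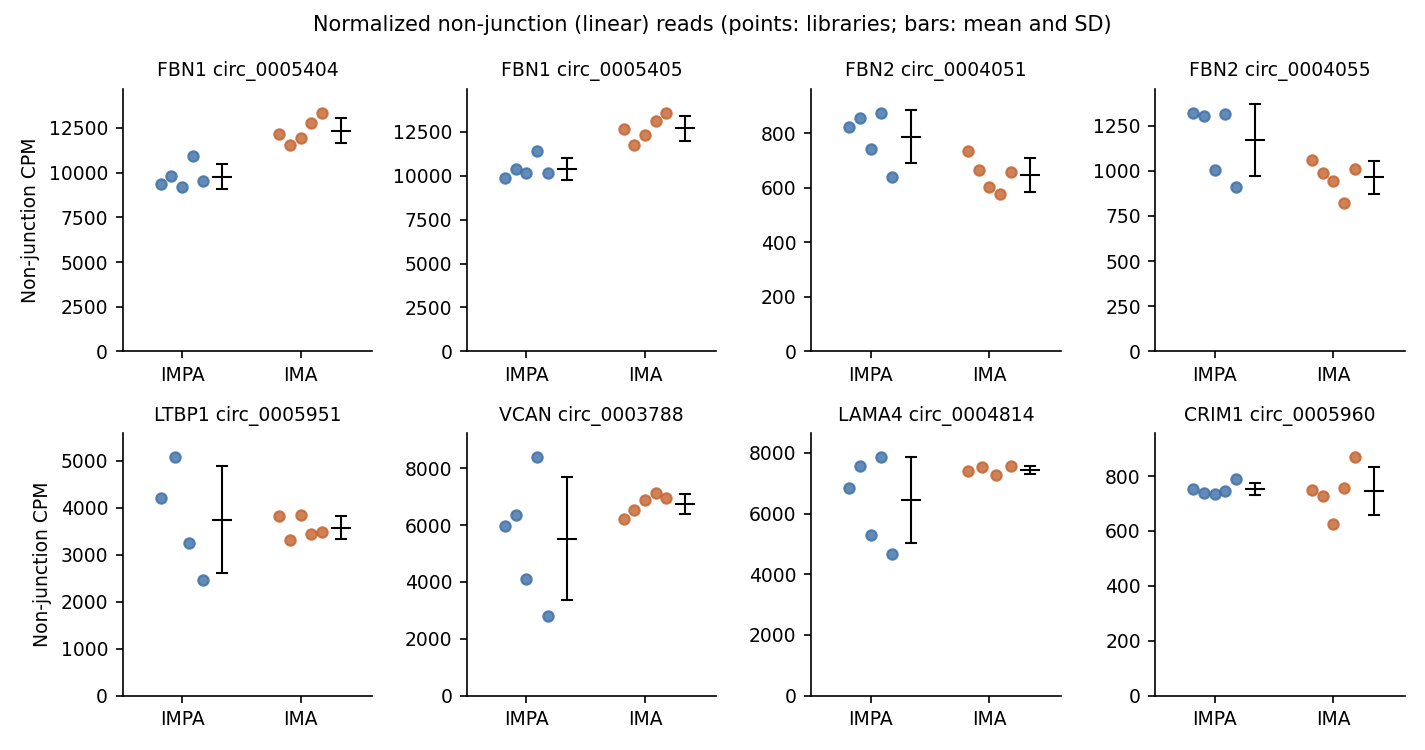
Normalized non-junction CPM in each library (points, in the order of the library numbers) by circRNA and group, with the mean and SD of each group (black bars) on linear axes from 0. IMA lies above IMPA without overlap in both FBN1 panels, and the IMPA libraries of VCAN, LAMA4 and LTBP1 spread widely, with the libraries IMPA3 and IMPA5 low. LTBP1 has 4 IMPA libraries and LAMA4 has 4 IMA libraries, and the other groups have 5.

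Per position, the linear reads of these genes differed far more than their circles. Non-junction reads are counted at the ends of a circRNA and carry no length term. FBN1 circ_0005405 and circ_0005404 had means of 1988 and 1899.6 non-junction reads per library, ranks 11 and 13 among 1327. LAMA4 had 1186, VCAN 1043 and LTBP1 628, each above at least 92.6% of circRNAs. FBN2 circ_0004055 had 190.2, CRIM1 132 and FBN2 circ_0004051 128, near the median of 140 over all circRNAs.

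The circular share fell into 2 ranges. It was 12.8% for FBN2 circ_0004055, 12.7% for FBN2 circ_0004051 and 7.54% for CRIM1 as means over libraries. It was 1.71% for LTBP1, 1.27% for VCAN, 0.946% and 0.805% for FBN1 circ_0005404 and circ_0005405, and 0.613% for LAMA4. The median over 1322 circRNAs was 8.97%, and the LAMA4 circle had the 18th lowest share of these. CRIM1 lay above LTBP1 in all 9 libraries with both values. Within the low range neighbours changed places, the higher member leading in 6 or 7 libraries.

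The share of FBN2 circ_0004051 was 13.9%, 4.85%, 12.5%, 2.21% and 11.05% in IMPA and 13.3%, 13.6%, 17.6%, 20% and 18.2% in IMA. IMPA2 and IMPA4, with 4 and 2 junction reads, were the low libraries, and IMA1 and IMA2 lay under IMPA1. The mean share was 7.63 percentage points higher in IMA (exact permutation test, two-sided, p = 0.0238, adjusted p = 0.185). In a model of both kinds of reads the change of its circular reads exceeded that of its linear reads by a log2 value of 0.68 ± 0.33, which did not pass the threshold (edgeR, unadjusted p = 0.0397, adjusted p = 0.256). Without IMPA4 this value was 0.42 (edgeR adjusted p = 0.58), and without IMPA1 it was 0.91 (edgeR adjusted p = 0.15). Of 690 circRNAs 5 (0.725%) passed 0.01 in that model, none of them among the 6 tested here.

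The LTBP1 share was 1.12%, 1.27%, 1.17% and 0.642% in the 4 IMPA libraries with a value and 1.82%, 2.21%, 2.38%, 3.16% and 1.65% in IMA. The groups did not overlap, as in 5.07% of the 690 circRNAs with values in all libraries. That share is for 5 against 5 libraries, while LTBP1 had 4 against 5, where groups without overlap arise more easily. IMPA4, with 0 junction reads, has no value here, and every library rests on 8 junction reads or fewer. The difference was 1.19 percentage points (exact permutation test without IMPA4, two-sided, p = 0.0159, adjusted p = 0.244). In the model of both kinds of reads, the circular change of LTBP1 exceeded its linear change by 0.75 ± 0.43 without IMPA4 (edgeR adjusted p = 0.39). The LAMA4 shares of the IMPA libraries ran from 0.341% to 0.625% and those of the IMA libraries from 0.570% to 0.985%, with a difference of 0.336 points (exact permutation test without IMA3, p = 0.0397, adjusted p = 0.209). That model gave LAMA4 a log2 value of 0.39 ± 0.48 without IMA3 (edgeR adjusted p = 0.70). IMA3 is missing because it had 0 LAMA4 junction reads, so leaving it out raises the IMA mean, while leaving out IMPA4 raises the IMPA mean of LTBP1. With these shares counted as 0, an alternative added after the values were seen, the LAMA4 difference was 0.176 points (exact permutation p = 0.381) and that of LTBP1 was 1.40 points (exact permutation p = 0.00794, the smallest that the label assignments can give, adjusted p = 0.163 over 1294 circRNAs).

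The remaining shares differed by less than their spread. The difference was 0.22 points for VCAN, -0.0053 for FBN1 circ_0005404, 0.082 for FBN1 circ_0005405, 2.37 for FBN2 circ_0004055 and 0.0072 for CRIM1, with exact permutation p of 0.46 to 1. For FBN2 circ_0004055 it was 0.478 points without IMA4 and 4.49 points without IMA5 (exact permutation p = 0.857 and 0.103). Over all 690 circRNAs the median difference was 1.68 points, 0 (0.0%) passed an adjusted 0.05, and 149 (21.6%) had an unadjusted exact permutation p under 0.05. With 5 libraries per group none could pass unless at least 110 circRNAs reached the smallest p.

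**Figure D4:**
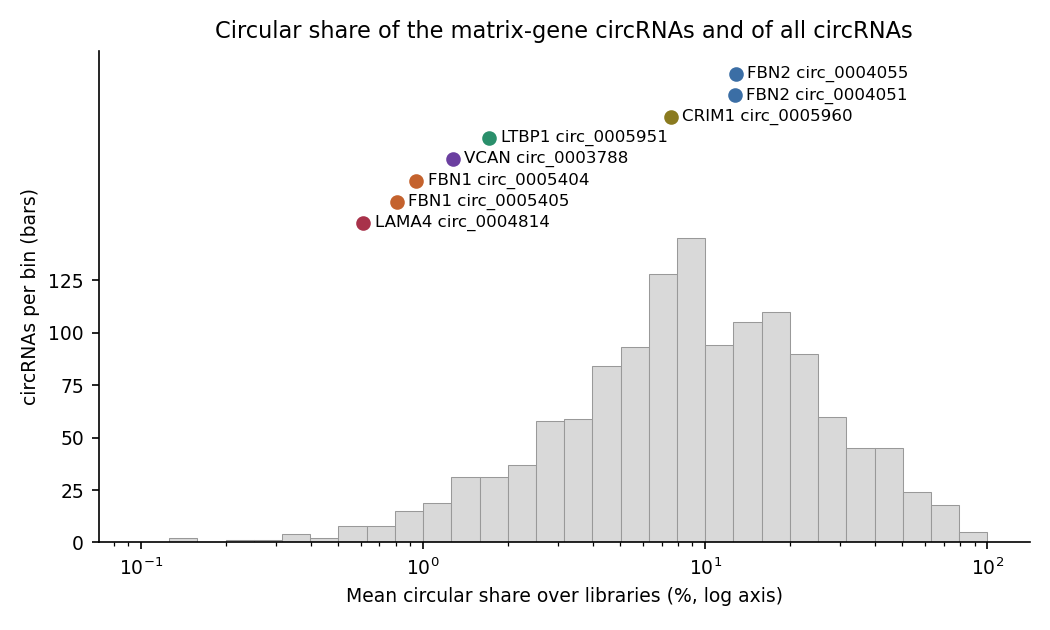
Mean circular share over libraries in percent (log axis) of each of the 8 circRNAs (points, coloured by gene, heights arbitrary) above the number of all circRNAs per bin of share (grey bars). The FBN1, LAMA4, VCAN and LTBP1 circles sit in the left tail at 0.613% to 1.71%, and the FBN2 and CRIM1 circles near the median of 8.97%.

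**Figure D5:**
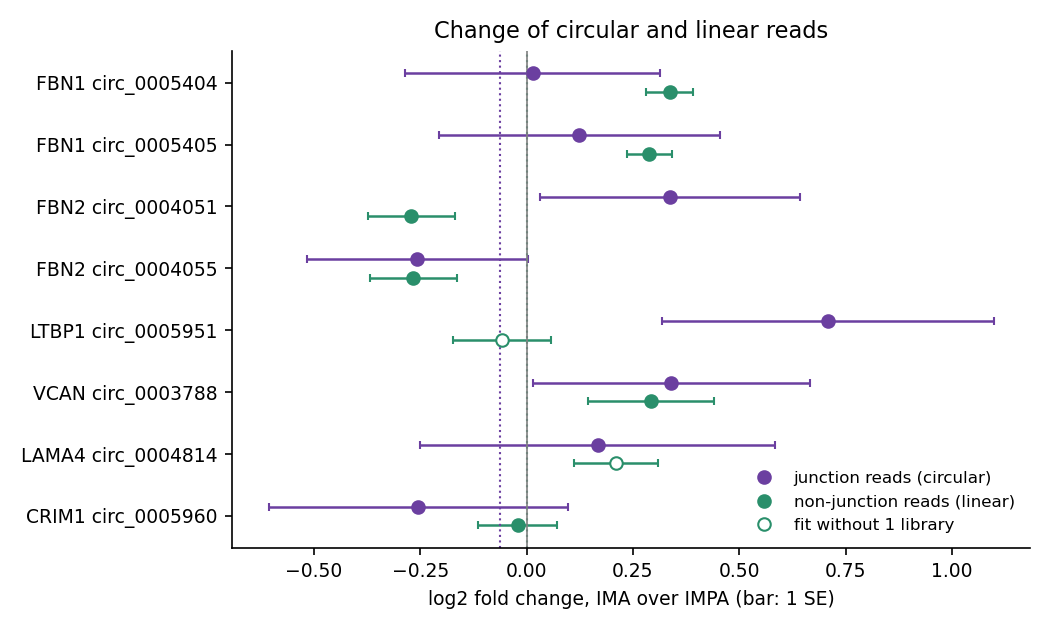
Log2 fold change of IMA over IMPA with its SE for junction reads (purple) and non-junction reads (green) of each circRNA, from edgeR. Open circles are fits without 1 library (IMPA4 for LTBP1, IMA3 for LAMA4), and dotted lines are the medians over all circRNAs tested, -0.062 for junction and 0.00077 for non-junction reads. The SEs of the junction reads are wider, and FBN1 and FBN2 lie on opposite sides of 0 in linear reads.

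Other genes of the matrix, of the microfibrils and of TGF-beta and BMP signalling were taken from a list of 152 genes, 22 of which had circRNAs, 36 in all. Of 35 circRNAs tested on junction reads 1 was called higher and 1 lower in IMA, against 0.464% of all circRNAs in each direction, and the median log2 fold change was -0.31, against -0.062 over all. The one called higher was COL5A1 circ_0005870, from a fibrillar collagen gene, with 0 to 3 reads per IMPA library against 6 to 9 per IMA library (edgeR adjusted p = 0.00207). The one called lower was CEMIP circ_0009677, from a gene whose product takes part in the breakdown of hyaluronan, the ligand of versican. Its IMPA libraries held 111 to 191 reads and its IMA libraries 74 to 109, a log2 fold change of -0.58 ± 0.12 (edgeR adjusted p = 0.00303).

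The next in order of p did not pass 0.01. ITGAV, the integrin alpha V chain that binds latent TGF-beta, gave circ_0000946, with 2 to 10 reads per IMPA library and 0 in every IMA library (edgeR adjusted p = 0.0124), and circ_0000948, with 0 in every IMPA library and 2 to 3 per IMA library (edgeR adjusted p = 0.0632). CEMIP circ_0009678, DAG1 circ_0010124, SMAD1 circ_0008510 and TGFB2 circ_0007872 followed with edgeR adjusted p of 0.107 to 0.237. DAG1 encodes dystroglycan, a laminin receptor, and SMAD1 transmits BMP signals.

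In linear reads 19 circRNAs of the list were tested, of which 2 were called higher and 10 lower in IMA, against 11.6% and 10.1% of all 690. Their median log2 fold change was -0.31, against 0.00077 over all. These counts are of circRNAs and not of genes, and CEMIP and ITGA4 each enter the lower calls more than once. Since circRNAs that share a splice position share non-junction reads, the calls of a gene are not independent. COL5A2, a partner chain of COL5A1, was called higher with a log2 fold change of 0.63 ± 0.045 (edgeR adjusted p = 7.29e-13), the same direction as FBN1. Reads at CEMIP circ_0009657 and circ_0009677 were lower by log2 values of -1.31 and -1.22. ADAMTS14, a procollagen N-propeptidase, was lower with -0.90, ADAMTS5, a protease that cleaves versican, with -0.76, and the collagen receptor DDR2 with -0.43. ITGA4, an integrin chain that binds fibronectin, was lower at both of its circRNAs, with -0.49 and -0.44. The 7 circRNAs lower here had edgeR adjusted p of 6.74e-06 or below.

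For each gene the circRNAs of other genes, with at least 10 reads on average, were ranked by the Pearson r of log2 normalized junction reads over the 10 libraries. Closest to LAMA4 were ARHGEF7 circ_0006764 (r = 0.95) and EEFSEC circ_0010190 (r = 0.95), and closest to VCAN was CSNK2A1 circ_0007083 (r = 0.87). LTBP1 lay closest to MED17 circ_0011790 (r = 0.83), FBN2 to C16H1orf27 circ_0008228 (r = 0.83), CRIM1 to HTT circ_0003147 (r = 0.79) and FBN1 to CPSF6 circ_0002753 (r = 0.76). These are the highest of 324 or 325 candidates over 10 points that share depth, and LAMA4 and LTBP1 have 1 library each at 0, far below their others on this scale. None of the neighbours was a gene of the matrix list, but that list gave only 36 of all 1327 circRNAs, so this absence says little.

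The miRNA pairs that the authors predicted for their circRNAs included 87 between the 8 circRNAs and 58 miRNAs. FBN1 circ_0005404 had 15, FBN1 circ_0005405, FBN2 circ_0004051 and VCAN 14 each, FBN2 circ_0004055 and LTBP1 10 each, CRIM1 8 and LAMA4 2, against a median of 9 over all circRNAs. The FBN1 circRNAs shared 8 miRNAs (53.3% and 57.1% of their lists). All 10 miRNAs of FBN2 circ_0004055 were also paired with circ_0004051, whose listed exons include its own. The miRNA paired with the most of the 6 genes was chi-miR-128-3p, with FBN1, LTBP1 and CRIM1, and it was paired with 60 (4.52%) of all circRNAs. chi-miR-130b-5p was paired with all 4 fibrillin circRNAs and with 6.33% of all. These are predictions from sequence and no measurement of binding.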

How the data were processed

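The 5 IMPA and 5 IMA libraries were sequenced after removal of ribosomal RNA. The authors mapped clean reads with HISAT2, called circRNAs with find_circ (at least 2 reads) and CIRI2, and kept locations found by both. Genome build and versions are not given in the sources used here. The values used are the junction read counts as deposited by the authors, not normalized, with junction and non-junction reads per library in the circRNA table. Of its 1330 entries 3 repeats were dropped, and columns of 10 further samples were not used. No count of 1 occurs, and 68.8% of counts above 0 are under 10. The columns that the authors named TPM are CPM values and were not used.

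Groups came from the labels. Counts were tested with edgeR 4.0.16 (R 4.3.3, TMM, glmQLFTest, prior count 2, Benjamini-Hochberg, 0.01) over all circRNAs with reads in at least 5 libraries. Non-junction reads are missing where junction reads are 0, so that their filter became values in all 10 libraries, which differs from the planned filter. Shares were compared by exact permutation tests (numpy 2.4.6). limma 3.58.1 and DESeq2 1.42.0 gave alternatives. The steps were tested on simulated data. Members, lists and tests were chosen with earlier results of these data known. Named circRNAs were all members, and the 8 of the matrix list with the smallest p in each test. Likeness was ranked by Pearson r, 3 circRNAs per gene. The FBN1 to FBN2 ratio and the removal of IMPA3 and IMPA5 were chosen after seeing the data.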

Additional observations from a re-analysis of the deposited data

Results flagged for a closer look

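The junction level of FBN1 circ_0005404 in IMPA3 was 223 normalized CPM, far from the other IMPA libraries, of which the next was 780 and the highest 987. The gap made up 0.730 of the range of the group. The library held 3 reads of this circRNA and 17 reads of FBN1 circ_0005405. Of 48 groups of values examined in this way 1 stood out, while chance marks about 1 in 20 groups.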

How the results depend on the processing

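Junction reads of most of these circRNAs are under 20 per library, which limits every comparison of circles, and LTBP1, VCAN, LAMA4 and CRIM1 rest on 12 reads or fewer. The groups differ in depth and in the part of reads that mapped, and day of induction and any technical difference that goes with it cannot be told apart. The uniquely mapped reads as library sizes moved the median log2 fold change of all circRNAs on junction reads from -0.062 to 0.13. FBN1 linear reads kept their direction and their call under every alternative run, with log2 fold changes of 0.27 to 0.34 at circ_0005404 and 0.22 to 0.29 at circ_0005405, and of 0.31 to 0.38 and 0.27 to 0.32 with 1 library left out. FBN2 linear reads kept their direction, at -0.34 to -0.21, with the fits without IMPA3 and IMPA5 set aside. Their pass at 0.05 was lost at both circRNAs with DESeq2 (adjusted p = 0.0559 at circ_0004055 and 0.0598 at circ_0004051), with limma voom (0.0720 and 0.0528) and in 7 of 10 fits without 1 library. At circ_0004055 it was also lost with limma on incomplete values (0.0509). In junction reads no alternative that gave the 8 an adjusted p gave a call (lowest adjusted p = 0.217, LTBP1 with limma voom). DESeq2 set no adjusted p for the 8, whose lowest unadjusted p was 0.0697, and only FBN2 circ_0004055 reached a mean count of 10. Unadjusted p fell under 0.05 for LTBP1 in 3 fits, those with limma voom, with uniquely mapped reads and without IMPA2. In edgeR the filter on non-junction reads was not removed, since values are missing where junction reads are 0, and limma on incomplete values tested 1183 circRNAs in place of 690.

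Of circRNAs called lower on junction reads, 6 became 2 without TMM, 1 with uniquely mapped reads, 10 at a mean count of at least 10, 10 with DESeq2 and 12 at 0.05. Those called higher became 3 at that mean count and 3 with DESeq2. With 1 library left out the lower calls were 2 to 6, with 3 without IMPA1 and 2 without IMPA3, IMPA5 or IMA1. Host genes called higher, 5, became 8 with uniquely mapped reads and 2 at a mean count of at least 10. Host genes called lower, 7, became 1 with uniquely mapped reads and 14 at 0.05. Linear reads called higher, 80, became 48 without TMM, 49 with uniquely mapped reads and 127 at 0.05. Those called lower, 70, became 106 without TMM, 113 (9.55%) of the 1183 with limma on incomplete values (added after seeing the data), which called 118 (9.97%) higher, and 119 at 0.05. Without IMPA3 and IMPA5 they were 82 and 63. The model of both kinds of reads called 9 higher and 6 lower at 0.05, 0 lower without TMM or at a mean count of at least 10, 2 lower with limma voom, and 0 to 2 lower with 1 library left out, 0 without IMPA3, IMA2 or IMA5 and 2 without IMPA2, IMA1 or IMA4. The causes were not tested.

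Signs changed only for values that were not called. LAMA4 junction reads gave -0.014 with limma voom. The summed FBN2 circles gave 0.031 with DESeq2 size factors, 0.053 without TMM, 0.21 with uniquely mapped reads, 0.025 at a mean count of at least 10, 0.035 with DESeq2 and 0.019 with limma voom, and -0.096 to 0.13 with 1 library left out. The difference between circular and linear change of FBN2 circ_0004055 was 0.068 without TMM. VCAN linear reads gave -0.026 without IMPA3 and IMPA5. With 1 library left out, junction reads ranged over -0.19 to 0.13 (FBN1 circ_0005404) and -0.052 to 0.44 (FBN1 circ_0005405), CRIM1 linear reads over -0.079 to 0.043, and the difference of the changes over -0.24 to 0.31 (VCAN), -0.20 to 0.19 (FBN2 circ_0004055) and -0.33 to 0.27 (FBN1 circ_0005405). The differences in circular share ranged over -0.097 to 0.39 points (VCAN), -0.16 to 0.11 (FBN1 circ_0005404), -0.056 to 0.29 (FBN1 circ_0005405) and -1.0 to 0.93 (CRIM1), and those in isoform share over -14.4 to 2.32 points for FBN1 circ_0005404 and -2.32 to 14.4 for circ_0005405. The log2 ratio of FBN1 to FBN2 differed by 0.53 to 0.68.

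In junction reads, libraries with the same replicate number in both groups did not deviate together (residual correlations of -0.052 to 0.011, and 0 of 10 libraries correlated best with their own number). Of the junction counts above 0, 68.8% are under 10, and linear reads were not checked in this way. This check therefore cannot decide whether the numbers pair the libraries. With the replicate number as a block, linear VCAN reads passed 0.01 (log2 fold change 0.37, edgeR adjusted p = 0.000142), no other call changed among the junction reads of the 8 circRNAs and the linear reads of the 6 with values in all libraries, and linear calls over all circRNAs became 93 higher and 80 lower.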
